A study of Mus musculus with 10 samples.

Results

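Genes of myelin and of the mature oligodendrocyte, 9 in number, were followed in the hippocampus of female tauopathy mice: Mbp, Mog, Mag, Mobp, Cnp, Mal, Cldn11, Opalin and Ermn. They were chosen by name from what is known of the sheath and of the cell that makes it, though with earlier results of these data known. All 9 were found among the 56884 rows of the count table. All 9 passed the filter on low counts that left 17622 genes tested, and the smallest member count in any library was 731, for Opalin. Every mouse was an ovary-intact P301S female carrying mutant human tau under the mouse Prnp promoter, which drives expression in neurons and other brain cells. Mice received at 6 months either a 10 mm SILASTIC implant filled with dihydrotestosterone (DHT, an androgen that aromatase cannot convert to estrogen) or a void implant, for 12 weeks. The hippocampus was taken at 9 to 9.5 months from 5 void-treated and 5 DHT-treated mice, with 1 RNA-seq library per mouse. No mice without the tau transgene and no males are among these 10 libraries. Mice are named here by treatment and by the number in their label.

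Oligodendrocytes wrap axons of the central nervous system in a multilayered membrane, the myelin sheath, in which compact layers alternate with narrow cytoplasm-filled channels. Compact layers are held together by abundant small membrane and cytoplasmic proteins, while adhesion molecules hold the innermost layer to the axon and a tight-junction protein seals the sheath along its margins. The hippocampus is mostly grey matter, and its myelin lies in tracts such as the alveus and fimbria and along axons that cross its layers. In bulk tissue, fewer oligodendrocytes and less RNA per oligodendrocyte cannot be told apart.

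Promoters are shown because the oligodendrocyte regulators SOX10 and MYRF act on many of these genes. Cldn11 and Mal, with the highest and the lowest fold change in the comparison below, were included after those values were seen. Both lack the motifs capitalised in Cnp and Mag. RefSeq promoters of build GRCm38.p6 were matched by symbol for 8 of the 9 genes, as 10 windows of 300 bases, and Mbp was not matched. The 250 bases before the start site are printed 5′ to 3′ on the gene's strand, with capitals marking ACAAAG, the SOX core, or CTGGCAC, a MYRF core, on either strand. Cnp is at chr11:100574689-100574938 on the plus strand, Mag at chr7:30914864-30915113 on the minus strand (1 of its 3 windows), Cldn11 at chr3:31149670-31149919 on the plus strand and Mal at chr2:127656696-127656945 on the minus strand.
Cnp: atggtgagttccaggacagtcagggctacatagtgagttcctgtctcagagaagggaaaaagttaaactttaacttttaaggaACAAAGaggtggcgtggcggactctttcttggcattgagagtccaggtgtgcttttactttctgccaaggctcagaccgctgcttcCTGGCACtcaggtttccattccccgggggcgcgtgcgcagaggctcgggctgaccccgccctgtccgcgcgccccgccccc
Mag: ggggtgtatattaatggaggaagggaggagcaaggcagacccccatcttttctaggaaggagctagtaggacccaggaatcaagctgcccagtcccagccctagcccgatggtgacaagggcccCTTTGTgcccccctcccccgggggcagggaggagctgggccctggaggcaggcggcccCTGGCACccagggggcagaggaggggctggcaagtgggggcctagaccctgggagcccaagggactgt
Cldn11: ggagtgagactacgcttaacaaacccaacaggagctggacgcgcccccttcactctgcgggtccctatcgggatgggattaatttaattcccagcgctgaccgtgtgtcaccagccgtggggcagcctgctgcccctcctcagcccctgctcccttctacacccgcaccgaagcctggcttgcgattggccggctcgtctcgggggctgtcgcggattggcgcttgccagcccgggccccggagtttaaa
Mal: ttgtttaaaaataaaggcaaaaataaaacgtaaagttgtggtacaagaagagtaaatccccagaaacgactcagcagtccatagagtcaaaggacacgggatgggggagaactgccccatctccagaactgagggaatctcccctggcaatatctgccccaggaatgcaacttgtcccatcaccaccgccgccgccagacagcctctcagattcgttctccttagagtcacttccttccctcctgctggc
In Cnp, the ACAAAG match began 167 bases and the CTGGCAC match 81 bases before the start site. In this Mag window the SOX core was read on the other strand, as CTTTGT. The 5 motifs searched, on both strands of the 300-base windows, were ACAAAG for SOX factors, CTGGCAC and its variant CTGGTAC for MYRF, AGGTCA for many nuclear receptors and AGAACA for the androgen receptor, and none of these contains another. ACAAAG was in windows of 4 of the 8 genes (Mag, Mobp, Cnp and Opalin), against 18.7% of all 32851 promoters and 21% of genes. CTGGCAC was in windows of 3 of 8 (Mag, Cnp and Opalin), against 5.01% of promoters and 5.73% of genes. CTGGTAC was in 1, Mog, against 2.24% of promoters and 2.6% of genes. AGGTCA (16.3% of promoters and 18.1% of genes) and AGAACA (19% of promoters and 21.3% of genes) were in none of the 8. Windows of Cldn11, Mal and Ermn held none of the 5 motifs. These matches describe letters in short windows and say nothing of binding or of the difference between treatments.

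Libraries held between 27188854 and 47113661 counts, and the 9 genes together took 77035 to 139915 of them. Counting error in their sum was therefore small beside the spread between mice. Single genes had fewer counts, down to 731, and their counting error was not set against their spread. The summed level of 10 choroid plexus markers did not overlap between groups (115 to 1863 CPM, counts scaled to a common library size, in void-treated and 2113 to 2983 CPM in DHT-treated mice), and all 10 were detected in both groups. The sum of 10 microglial markers was also higher with DHT without overlap (464 to 559 against 682 to 1059 CPM). That of 9 neuronal markers was lower without overlap (7481 to 8192 against 6561 to 7425 CPM). The mean log2 CPM of these 9 neuronal markers overlapped, however, and 0 of 9 passed the test or had separate groups. Of 7 astrocyte markers, 6 had positive fold changes and 1, Gfap, passed the test at an edgeR adjusted p under 0.05. Of the choroid plexus markers 3 of 10 passed, and of the microglial markers 7 of 10, where 5.22% of all genes were called higher. Gfap, an intermediate filament gene of reactive astrocytes, rose from 335 to 559 CPM in void-treated to 644 to 1349 CPM in DHT-treated mice (log2 fold change 1.18, SE 0.19, edgeR adjusted p = 0.0076). The astrocyte sum, most of it from the glutamate transporter gene Slc1a2 (log2 fold change -0.04), overlapped, as did the sums of 8 meningeal and 5 endothelial markers. The S numbers in the library labels, whose meaning is not given, ran from 4 to 11 in void-treated and from 18 to 23 in DHT-treated mice. The effect of treatment therefore cannot be told apart from that of whatever these numbers stand for.

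None of the 9 genes passed the test for a difference between DHT-treated and void-treated mice. Means were higher with DHT for 8 genes and lower for 1, Mal, and the log2 fold changes ran from -0.04 for Mal to 0.35 for Cldn11, with a median of 0.19 against 0.01 over all genes tested. With quasi-likelihood p-values from edgeR, adjusted by Benjamini-Hochberg, 0 of 9 were under 0.05, where 5.22% of genes tested were called higher and 2.17% also exceeded a log2 fold change of 1. At an unadjusted p under 0.05, 4 of 9 were higher with DHT (Cldn11, Mag, Opalin and Cnp), against 13.1% of all genes. These 4 genes moved together from mouse to mouse, so they do not count as 4 separate observations. In no gene were the groups separate, against 5.39% of genes tested with every DHT-treated mouse above every void-treated mouse. The upper bounds of the 95% intervals of the fold changes, not adjusted for the number of genes, lay between 0.15 and 0.59 on the log2 scale.

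**Figure D1:**
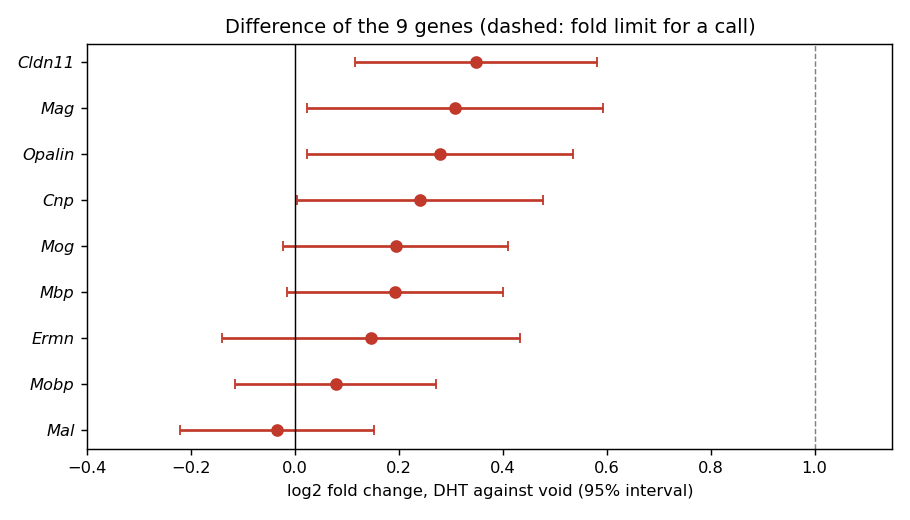
Log2 fold change (DHT against void, horizontal axis) of the 9 genes, with the 95% interval from the edgeR fit over 5 mice a group and the fold limit of 1 dashed. Intervals of Cldn11, Mag, Opalin and Cnp lie above 0 before adjustment, and every interval ends short of the dashed line.

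The choroid plexus markers moved with treatment beside these differences. In a fit with their mean level as a covariate, the median log2 fold change of the 9 genes was 0.06, 6 were positive, and the lowest edgeR adjusted p was 0.83. The marker level was separate between the groups, so its effect and that of treatment cannot be told apart in this fit. Within the void-treated group, mice 4, 5, 9, 10 and 11 had choroid plexus sums of 946, 115, 1863, 450 and 123 CPM beside sums over the 9 genes of 2580, 2681, 2870, 3242 and 2308 CPM. Without void mouse 11, which had the lowest level of 7 of the 9 genes, the median log2 fold change was 0.11 and 7 genes were positive. In that fit Mbp was at 0.11, Mog at 0.10, Cnp at 0.16, Ermn at 0.08, Cldn11 at 0.27, Mag at 0.22 and Opalin at 0.21. Mobp was at -0.02 and Mal at -0.12. Leaving out void mouse 10 instead moved the median the other way, to 0.28, with 9 genes positive.

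Levels between genes were compared per kilobase of exon (exon lengths of GENCODE M21). Each length was the union of exons over all transcripts of a gene, which can exceed that of the transcripts present. The annotation behind the counts is not given, so the order below holds for this measure alone. Mbp was the most abundant in void-treated mice at 143 ± 17.8 CPM per kb (SD, n = 5), followed by Mobp at 90.0 ± 11.5 and Mal at 76.5 ± 10.8 CPM per kb. Cnp (69.3 ± 11.2), Cldn11 (59.3 ± 10.1), Mag (35.7 ± 6.41), Ermn (29.9 ± 5.25) and Mog (29.5 ± 4.96) came next, and Opalin was lowest at 8.37 ± 1.41 CPM per kb. Mbp was above Mobp, and Mobp above Mal, in all 10 mice, and Cldn11 was above Mag and Mog above Opalin in all 10. Mal and Cnp could not be ordered over all mice: Mal was above Cnp in 5 of 5 void-treated mice and in 1 of 5 DHT-treated mice, whose means were 74.6 for Mal and 81.8 CPM per kb for Cnp. Ermn was above Mog in 6 of 10 mice, so these neighbours were not separated either.

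Mbp (ENSMUSG00000041607) encodes myelin basic protein, which draws the cytoplasmic faces of the membrane together and without which central myelin does not compact. Its level was 1159, 1161, 1260, 1448 and 1046 CPM in void-treated mice 4, 5, 9, 10 and 11, and 1415, 1208, 1270, 1470 and 1576 CPM in DHT-treated mice 1, 2, 3, 5 and 6. DHT-treated mice 5 and 6 were the highest of all, but void mouse 10 was above 3 of the DHT-treated mice and the groups overlapped. Means were 1215 ± 151 CPM in void-treated and 1388 ± 150 CPM in DHT-treated mice (SD, n = 5 each). The log2 fold change was 0.19 (SE 0.10), with an edgeR adjusted p of 0.34 and an exact permutation p of 0.087 (two-sided, as for all genes below; the smallest that 5 against 5 mice allow is 0.0079). The table gives 1 count per gene, so classic Mbp transcripts and the longer Golli forms, which other cells also make, were counted together.

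Mobp (ENSMUSG00000032517) encodes another small protein of the cytoplasmic face of compact myelin. Void-treated mice 4, 5, 9, 10 and 11 had 599, 677, 613, 698 and 497 CPM, and DHT-treated mice 1, 2, 3, 5 and 6 had 704, 665, 680, 589 and 617 CPM. The groups overlapped almost wholly, with void mouse 11 below every DHT-treated mouse and DHT-treated mouse 1 above every void-treated mouse. Means were 617 ± 78.7 and 651 ± 47.3 CPM, for a log2 fold change of 0.08 (SE 0.09; 95% interval -0.12 to 0.27; edgeR adjusted p = 0.74; exact permutation p = 0.48). Without void mouse 11 the log2 fold change was -0.02. The order of mice differed from that for Mbp: DHT-treated mice 5 and 6, the highest for Mbp, were the lowest of the DHT-treated mice for Mobp.

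Mal (ENSMUSG00000027375), a proteolipid that organises glycolipid-rich membrane domains in myelin, had a mean of 213 ± 30.1 CPM in void-treated and 207 ± 4.5 CPM in DHT-treated mice. Its values were 184, 218, 238, 244 and 178 CPM in void-treated mice 4, 5, 9, 10 and 11, and 205, 214, 202, 209 and 206 CPM in DHT-treated mice 1, 2, 3, 5 and 6. All 5 DHT-treated mice therefore lay inside the range of the void-treated mice. The log2 fold change was -0.04 (SE 0.09; 95% interval -0.22 to 0.15), with an edgeR adjusted p of 0.90 and an exact permutation p of 0.74. Its sign turned on leaving out void mouse 9 (0.01) or void mouse 10 (0.02).

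Cldn11 (ENSMUSG00000037625), the claudin that forms the tight junctions of central myelin, had the largest fold change of the 9. Void-treated mice 4, 5, 9, 10 and 11 had 98.6, 100, 121, 140 and 95.6 CPM, and DHT-treated mice 1, 2, 3, 5 and 6 had 136, 125, 139, 148 and 159 CPM. Void mouse 10 was above 3 of the DHT-treated mice, and the other void-treated mice were below all of them. Means were 111 ± 18.9 and 141 ± 12.7 CPM, a log2 fold change of 0.35 (SE 0.11; 95% interval 0.12 to 0.58). The edgeR adjusted p was 0.088 and the exact permutation p 0.032, unadjusted over 9 genes. Without void mouse 10 the log2 fold change was 0.44 and the adjusted p 0.028, the only setting run in which any of the 9 passed; without void mouse 11 the values were 0.27 and 0.27.

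Mag (ENSMUSG00000036634) encodes myelin-associated glycoprotein, which sits on the innermost layer facing the axon and binds sialic acid there. Levels were 130, 131, 163, 182 and 120 CPM in void-treated mice 4, 5, 9, 10 and 11, and 168, 153, 158, 203 and 218 CPM in DHT-treated mice 1, 2, 3, 5 and 6. DHT-treated mice 5 and 6 were above all others, and void mouse 10 was above the other 3 DHT-treated mice. Means were 145 ± 26.1 and 180 ± 28.7 CPM, for a log2 fold change of 0.31 (SE 0.13; 95% interval 0.02 to 0.59; edgeR adjusted p = 0.24; exact permutation p = 0.071).

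Mog (ENSMUSG00000076439) encodes myelin oligodendrocyte glycoprotein of the outermost layer. It was at 46.9, 46.6, 55.5, 61.9 and 40.4 CPM in void-treated mice 4, 5, 9, 10 and 11, and at 56.8, 55.9, 55.6, 61.2 and 57.6 CPM in DHT-treated mice 1, 2, 3, 5 and 6. Void mouse 10 was the highest of all 10, and the DHT-treated mice lay close together above the other void-treated mice. Means were 50.2 ± 8.45 and 57.4 ± 2.26 CPM, for a log2 fold change of 0.19 (SE 0.10; 95% interval -0.02 to 0.41; edgeR adjusted p = 0.36; exact permutation p = 0.11).

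Cnp (ENSMUSG00000006782) encodes a cyclic nucleotide phosphodiesterase of the cytoplasm-filled channels. Void-treated mice 4, 5, 9, 10 and 11 had 225, 233, 290, 302 and 212 CPM, and DHT-treated mice 1, 2, 3, 5 and 6 had 286, 272, 267, 331 and 333 CPM. As for Mag, DHT-treated mice 5 and 6 were highest, and void mice 9 and 10 were above the other 3. Means were 252.2 ± 40.8 and 298 ± 32.1 CPM, for a log2 fold change of 0.24 (SE 0.11; 95% interval 0.00 to 0.48; edgeR adjusted p = 0.28; exact permutation p = 0.079). Cnp shares 154 of its 3639 exon bases with Dnajc7 on the opposite strand, a gene at 145 CPM in void-treated and 144 CPM in DHT-treated mice, and the strand setting of the counting is not given in the sources used here.

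Opalin (ENSMUSG00000050121), a sialylated transmembrane protein made almost only by oligodendrocytes, was the least abundant. It had 19.4, 26.6, 25.3, 30.1 and 21.9 CPM in void-treated mice 4, 5, 9, 10 and 11, and 30.6, 25.2, 29.7, 34.6 and 29.4 CPM in DHT-treated mice 1, 2, 3, 5 and 6. Void mice 5, 9 and 10 were above DHT-treated mouse 2, and the groups overlapped. Means were 24.7 ± 4.16 and 29.9 ± 3.34 CPM, for a log2 fold change of 0.28 (SE 0.12; 95% interval 0.02 to 0.54; edgeR adjusted p = 0.24; exact permutation p = 0.087).

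Ermn (ENSMUSG00000026830) encodes ermin, an actin-binding protein that appears late in myelination. Its values were 118, 88.3, 104, 137 and 96.9 CPM in void-treated mice 4, 5, 9, 10 and 11, and 129, 142, 129, 106 and 94.6 CPM in DHT-treated mice 1, 2, 3, 5 and 6. The groups overlapped through most of their range, with DHT-treated mouse 2 highest and void mouse 5 lowest. Means were 109 ± 19.1 and 120 ± 19.4 CPM, for a log2 fold change of 0.15 (SE 0.13; 95% interval -0.14 to 0.43; edgeR adjusted p = 0.66; exact permutation p = 0.34). Ermn shares 237 exon bases with Galnt5 on the opposite strand, which was at 0.41 CPM in void-treated and 0.35 CPM in DHT-treated mice.

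**Figure D2:**
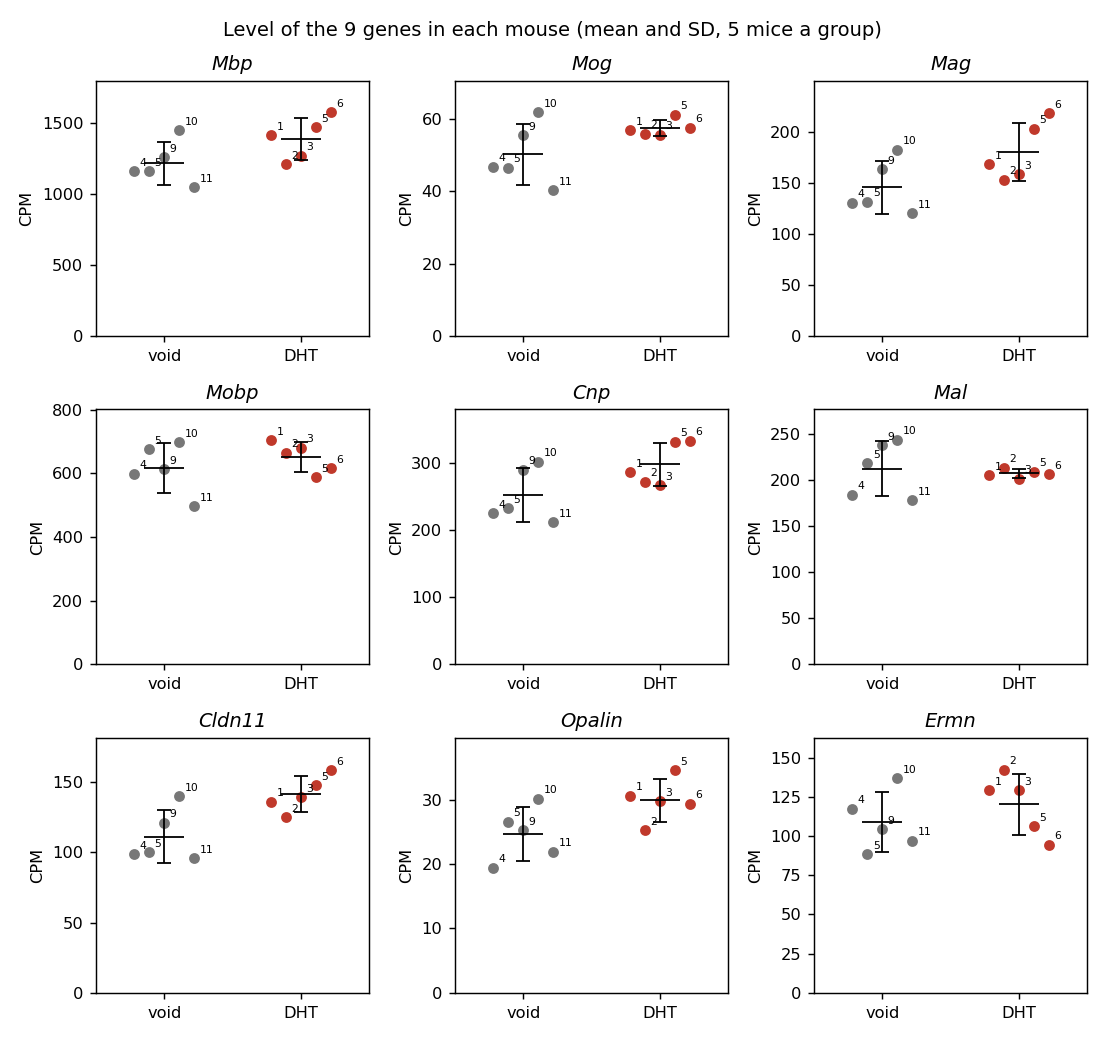
Level in CPM (vertical axes, from 0) of each of the 9 genes in each mouse, numbered as labelled, with the mean and SD of 5 void-treated (grey) and 5 DHT-treated (red) mice. Void mouse 11 is lowest in 7 panels, void mouse 10 lies in the DHT-treated range in most, and DHT-treated mice 5 and 6 are high for Mbp, Mag, Cnp and Cldn11 but low for Mobp and Ermn.

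The same void-treated mice were low for most of the genes. Void mouse 11 was among the lowest 3 of the 10 mice for 9 of 9 genes, void mouse 4 for 8 and void mouse 5 for 6, whereas void mouse 10 was among the highest 3 for 9 of 9. Summed over the 9 genes, the level was 2580, 2681, 2870, 3242 and 2308 CPM in void-treated mice 4, 5, 9, 10 and 11, and 3132, 2859, 2931, 3153 and 3290 CPM in DHT-treated mice 1, 2, 3, 5 and 6. The mean sum was 12.3% higher with DHT, and the void-treated range, 2308 to 3242 CPM, took in 4 of the 5 DHT-treated mice. Mbp made up 42.2% to 47.9% of the sum across the 10 mice.

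The coefficient of variation between mice was lower with DHT for all 9 genes and for 39.6% of all genes tested, although the SD itself was slightly larger with DHT for Mag and Ermn. For Mal it was 14.2% in void-treated and 2.17% in DHT-treated mice, and for Mog 16.8% and 3.93%. For Mag (18% and 16%), Ermn (17.5% and 16.1%) and Mbp (12.4% and 10.8%) the values were close. The median over all genes tested was 11.1% in void-treated and 13.3% in DHT-treated mice. The 9 genes share the same mice and much of their variation, so they do not count as 9 separate observations of the spread, and no test of it was made. The part of counting error in these values was not estimated.

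Genes moved together from mouse to mouse, with exceptions. Over the 36 pairs of the 9 genes, Pearson's r of the deviations of log2 CPM from the group means had a median of 0.67 over 10 mice, and 32 were above 0. Mag and Cnp were the closest pair (r = 0.98), with Mbp and Mag next to them (r = 0.95). All 4 pairs below 0 included Ermn, and Mag and Mobp had an r of 0.18. These are descriptions over values that share libraries and depth.

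Relative to the other 8 genes in the same mouse, Mal was the 1 gene whose groups did not overlap. Its log2 CPM minus the mean of the other 8 was 0.33, 0.54, 0.50, 0.33 and 0.41 in void-treated mice 4, 5, 9, 10 and 11, and 0.14, 0.30, 0.17, 0.12 and 0.11 in DHT-treated mice 1, 2, 3, 5 and 6. The lowest void-treated mouse was thus above the highest DHT-treated mouse, and the mean went from 0.42 ± 0.10 to 0.17 ± 0.08 (SD, n = 5 each), a difference of -0.25. Against the same 9 genes, 1.64% of all genes tested were lower with DHT in every DHT-treated mouse than in any void-treated mouse. The other differences ran from -0.13 for Mobp to 0.18 for Cldn11, with overlapping groups. Mal's own CPM overlapped between groups (log2 fold change -0.04), and the other 8 genes all had positive fold changes. The relative value of Mal holds both and is not by itself a fall in Mal.

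**Figure D3:**
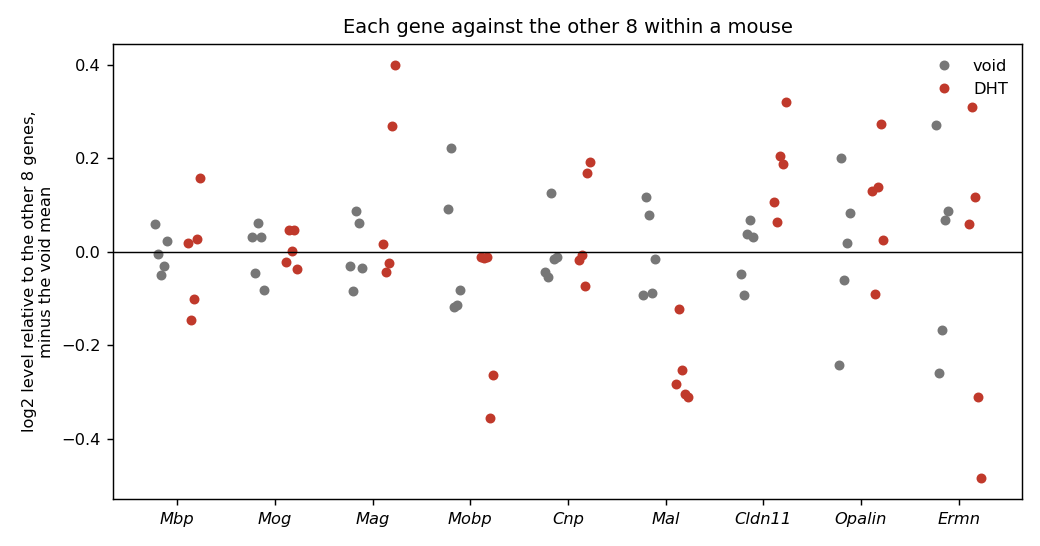
Log2 CPM of each gene minus the mean of the other 8 genes in the same mouse, set to 0 at the void mean (vertical axis), for 5 void-treated (grey) and 5 DHT-treated (red) mice. The 5 red points of Mal lie below all its grey points, while Mobp and Ermn each have 2 red points, mice 5 and 6, far below the other 3.

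Other genes of the oligodendrocyte lineage gave the setting. Of 24 other myelin sheath genes, all tested, 2 rose at an adjusted p under 0.05 and 0 fell, a share near the 5.22% of all genes called higher, and 22 had a positive fold change with a median of 0.18 on the log2 scale. Gsn, which encodes the actin-severing protein gelsolin, rose from 48.8 ± 6.00 to 70.3 ± 7.88 CPM (SD, n = 5 each; log2 fold change 0.53, SE 0.10, edgeR adjusted p = 0.012). Pmp22, a tetraspan protein best known from peripheral myelin, rose from 20.8 ± 2.46 to 27.7 ± 3.22 CPM (log2 fold change 0.41, SE 0.10, edgeR adjusted p = 0.035), a call that held in 2 of the 10 fits with 1 mouse left out, those without void mouse 10 or DHT-treated mouse 2. Neither transcript is limited to oligodendrocytes.

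Of 7 genes of myelin lipid synthesis, 2 rose and 0 fell, where 5.22% of all genes were called higher. All 7 fold changes were positive, with a median of 0.33 on the log2 scale. Their summed level was 194 to 271 CPM in void-treated and 275 to 308 CPM in DHT-treated mice, without overlap; without Elovl7 the sums of the other 6 genes overlapped (171 to 245 against 227 to 239 CPM). Elovl7, which elongates long-chain fatty acids, was at 28.4, 23.2, 37.5, 26.5 and 19.4 CPM in void-treated mice 4, 5, 9, 10 and 11, and at 73.2, 51.7, 67.5, 49.4 and 48.0 CPM in DHT-treated mice 1, 2, 3, 5 and 6. It rose by 1.10 on the log2 scale (SE 0.17, edgeR adjusted p = 0.0076), and by 0.53 with the choroid plexus covariate (edgeR adjusted p = 0.57). Among void-treated mice it was highest in mouse 9 and lowest in mice 5 and 11, which also had the highest and the lowest choroid plexus sums, and the part of that tissue was not tested. Cers2, the ceramide synthase that makes very long chain ceramides, rose from 53.5 to 67.4 CPM in the mean (log2 fold change 0.33, SE 0.07, edgeR adjusted p = 0.024), a call lost without any of void mice 4, 5 and 11 or DHT-treated mice 1, 3 and 5. The galactolipid enzyme gene Ugt8a had a log2 fold change of 0.06 (edgeR adjusted p = 0.88).

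None of 11 oligodendrocyte transcription factors passed the test, and the median log2 fold change was 0.11. At an unadjusted edgeR p under 0.05, 2 of 11 were higher with DHT, against 13.1% of all genes. The list ran from Tcf7l2, a Wnt pathway factor of newly differentiating cells (log2 fold change -0.08, SE 0.29, edgeR adjusted p = 0.94), to Nkx6-2, a homeobox factor of maturing oligodendrocytes (0.51, SE 0.21, edgeR adjusted p = 0.21). Sox10 had a log2 fold change of 0.28 (edgeR adjusted p = 0.45) and Myrf of 0.25 (edgeR adjusted p = 0.50), the factors whose motifs were searched above. Of 14 precursor and newly formed oligodendrocyte genes, 1 rose: Enpp6, a choline phosphodiesterase of newly forming oligodendrocytes, went from 10.3 to 14.6 CPM (log2 fold change 0.51, SE 0.13, edgeR adjusted p = 0.042). That 1 gene is near the 5.22% of all genes called higher, and its call was lost with DESeq2 size factors (adjusted p = 0.057) and held without void mouse 10 or DHT-treated mouse 2 but in none of the other 8 fits with 1 mouse left out. The precursor list had a median log2 fold change of 0.11, and its summed level overlapped between groups.

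Genes described in oligodendrocytes of diseased tissue gave larger fold changes, though the difference from the sheath genes was not tested. Of 6 such genes, 5 rose, where 5.22% of all genes were called higher, and the median log2 fold change was 0.92. The list was chosen with earlier results of these data known, so these shares are not an independent comparison. C4b, a complement component, rose from 67.2 to 202 CPM in the mean (log2 fold change 1.59, SE 0.21, edgeR adjusted p = 0.0067). Klk6, a secreted serine protease of oligodendrocytes, rose from 0.90 to 2.29 CPM (log2 fold change 1.33, SE 0.23, edgeR adjusted p = 0.0099). The antigen presentation genes B2m (log2 fold change 0.94, edgeR adjusted p = 0.0093) and H2-D1 (0.86, edgeR adjusted p = 0.016) also rose, as did the protease inhibitor gene Serpina3n (0.90, edgeR adjusted p = 0.018). Il33 did not pass (log2 fold change 0.22, edgeR adjusted p = 0.21). Astrocytes and microglia express most of these genes too, and the microglial marker sum and Gfap, given above, were also higher with DHT without overlap. Their part in these values was not tested. Without void mouse 11 or without DHT-treated mouse 1, 3 of the 6 genes passed, Serpina3n and H2-D1 losing the call. H2-D1 has close relatives in the same cluster, so its reads may be shared with them.

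On the axonal side, 10 genes of axon-glia contact had a median log2 fold change of -0.09, with 9 negative, 1 fallen and 0 risen. Over all genes, 46 of 17622 tested had fallen at an adjusted p under 0.05. Kcna2, a potassium channel subunit placed next to the nodes of myelinated axons, fell by 0.20 on the log2 scale (SE 0.05, edgeR adjusted p = 0.035). The call was lost in 9 of 10 fits with 1 mouse left out, all but the one without DHT-treated mouse 2, and without the filter on low counts (adjusted p = 0.092), with log2 fold changes from -0.24 to -0.19 over the 10 fits. Its mean was 414 ± 9.03 CPM in void-treated and 360 ± 17.3 CPM in DHT-treated mice (SD, n = 5 each), without overlap. Of the 17622 genes tested, 155 were lower with DHT without overlap. The sum of the neuronal markers was also lower without overlap, as given above, though their mean log2 CPM overlapped. The part of these markers in the value of Kcna2 was not tested.

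**Figure D4:**
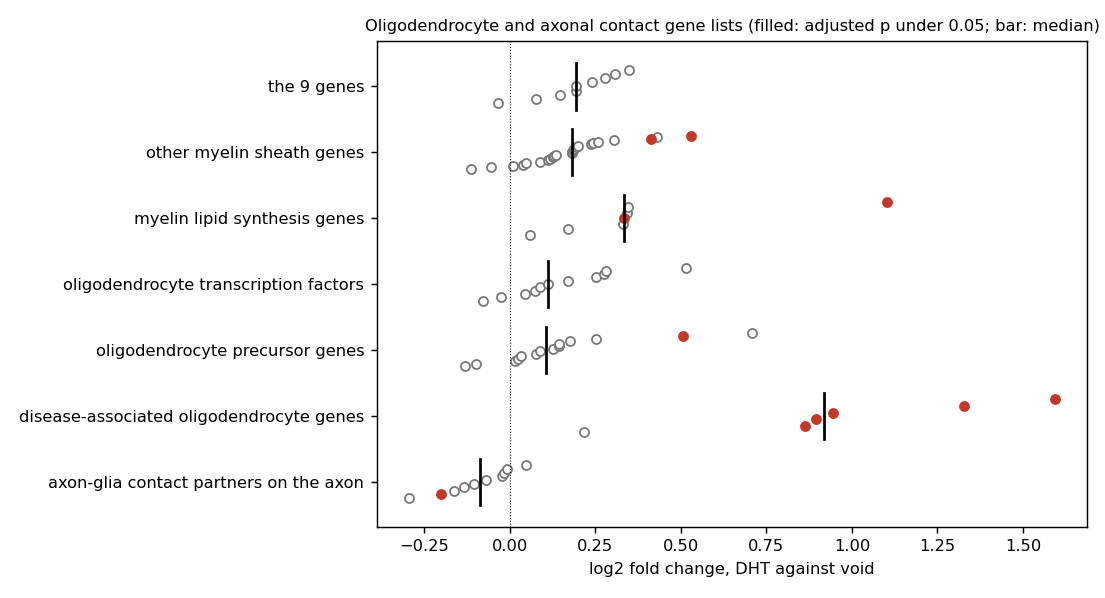
Log2 fold change (DHT against void, horizontal axis) of each gene in 6 oligodendrocyte lists and 1 list of axonal contact genes, 1 circle per gene, filled where the adjusted p was under 0.05, with a bar at each list's median. The 9 genes and the other sheath genes centre near 0.19 and 0.18 with 0 and 2 filled circles, while 5 of 6 disease-associated genes are filled and lie above 0.8.

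The genes whose pattern over the 10 mice was most like the mean standardised level of the 9 were Plekhb1 (Pearson's r = 0.97, Spearman's rho = 0.87), Mif4gd (r = 0.96, rho = 0.88), Qdpr (r = 0.96, rho = 0.83), Plxnb3 (r = 0.95, rho = 0.96) and Kcp (r = 0.95, rho = 0.95). Each r is over 10 libraries, whose depth and composition all genes share, and was taken as the highest of 17622 genes less the 9. None of these 5 passed the test between groups, with edgeR adjusted p-values from 0.14 for Qdpr to 0.59 for Kcp.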

How the data were processed

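Poly(A) RNA from the hippocampus of 10 mice (5 void, 5 DHT) was sequenced as paired ends. The authors cleaned reads with HTStream, aligned them with STAR 2.7.10b and deposited raw counts per gene, with Ensembl identifiers. The methods name build mm10 and the submitters' processing notes GRCm39; the annotation, counter and strand setting are not given in the sources used here. Symbols were matched for 51948 of 56884 identifiers.

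Counts were filtered with filterByExpr, scaled by TMM and tested with the quasi-likelihood test of edgeR 4.0.16 (R 4.3.3) with treatment as the only term; a call needed an adjusted p under 0.05. CPM used TMM-scaled library sizes, and log2 CPM a prior count of 2. Single genes also had a two-sided exact permutation test. DESeq2 1.42.0, limma 3.58.1 (voom), other scalings and filters, a choroid plexus covariate and leaving out each mouse were alternatives. The fit was tested on simulated counts. Per the study's methods, littermates were split at random between treatments and cages held mice of the same treatment, so cage and treatment cannot be told apart.

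Members and gene lists were chosen with earlier results of these data known. Outside the 9 genes, text names up to 4 genes per list that passed, the extremes of the lineage list without one, and the 5 most similar patterns. Markers of other cell types are given as sums and counts, with Gfap. Sox10, Myrf, Ugt8a, Slc1a2, Il33 and Serpina3n were named after their values were seen. The promoters of Cldn11 and Mal were likewise picked for printing by their fold changes.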

Additional observations from a re-analysis of the deposited data

How the results depend on the processing

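The 9 genes had 153 fold changes recomputed under the alternatives: 147 kept their direction and side of the threshold, 1 passed it (Cldn11 without void mouse 10) and 5 turned sign. With the choroid plexus covariate, Mog was at -0.0053 and Ermn at -0.051 on the log2 scale. Without 1 mouse at a time, the log2 fold change of Mobp ran from -0.018 to 0.13 (-0.018 without void mouse 11), of Mal from -0.12 to 0.018 (0.0084 without void mouse 9, 0.018 without void mouse 10), of Cldn11 from 0.27 to 0.44 (edgeR adjusted p 0.028 to 0.27) and of Tcf7l2 from -0.37 to 0.12; for the other members the ranges were 0.11 to 0.26 (Mbp), 0.10 to 0.28 (Mog), 0.22 to 0.40 (Mag), 0.16 to 0.31 (Cnp), 0.19 to 0.36 (Opalin) and 0.08 to 0.24 (Ermn). Tcf7l2 was at 0.45 with the covariate. The number of the 9 at an adjusted p under 0.05 ran from 0 to 1. Of the 238 recomputed values of other named genes, 184 kept direction and call, 50 lost the call and 4 turned sign. With the covariate none of them passed, with log2 fold changes of 1.502 for C4b, 1.05 for B2m, 1.10 for H2-D1, 0.74 for Serpina3n, 1.10 for Gfap, 0.83 for Klk6, 0.53 for Elovl7, 0.33 for Gsn, 0.47 for Pmp22, 0.20 for Cers2, 0.37 for Enpp6 and -0.18 for Kcna2. Of the 10 fits with 1 mouse left out, the call was lost in 9 for Kcna2, 8 for Pmp22, 8 for Enpp6, 6 for Cers2, 3 for Serpina3n and 2 for H2-D1. The lipid sum without Elovl7, an alternative chosen after seeing the data, differed by 30.7 CPM in place of 61.6 CPM. Causes were not tested.

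Over all genes, 382 were higher and 4 lower with an adjusted p under 0.05 and a change past 1 on the log2 scale. Genes higher were 0 with the covariate, 920 with no fold limit, and 175 to 513 without 1 mouse at a time (250 without void mouse 4, 197 without void mouse 11, 175 without DHT-treated mouse 1 and 242 without DHT-treated mouse 3). Genes lower were 7 with DESeq2, 8 without a filter, 2 with at least 10 counts in every library, 0 with the covariate, 46 with no fold limit, and 0 to 7 without 1 mouse at a time. With 1 replicate number in common between the groups, no paired fit could be made.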
